A study of Mus musculus with 6 samples.

Results

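The genes described here are 42 genes of the endoplasmic reticulum (ER), chosen by name: lumenal chaperones, disulfide and prolyl isomerases, the sensors of the unfolded protein response, the machinery of ER-associated degradation and the channel through which new proteins enter. All 42 stood in the deposited tables, among 24346 genes in all. Kidney RNA was profiled in 6 libraries from mice that had 1 kidney removed (unilateral nephrectomy, UNX), 3 labelled vehicle and 3 labelled D-serine. Both groups ate a diet without serine for 1 week, and the water of the D-serine group held 0.1% D-serine. Both groups were operated on and sampled 2 days later, so the surgery and the diet are shared by all 6 libraries. Strain, sex, age and the number of mice behind a library are not given in the labels, and p-values cover no more than the spread among these 6 libraries.

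Proteins bound for secretion, the plasma membrane or lysosomes enter the ER through the Sec61 channel, where chaperones and isomerases fold them. When unfolded protein accumulates, the membrane sensors IRE1, PERK and ATF6 set off the unfolded protein response: IRE1 splices the Xbp1 messenger, ATF6 is cut to release a transcription factor, and PERK slows translation. The transcription factors made by the first pair raise chaperone and degradation genes, and misfolded proteins are pulled back to the cytosol and degraded. In the kidney, tubule cells make large amounts of membrane transporters and receptors and so depend on this route.

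Values are FPKM, fragment numbers divided by transcript length and by the library total, as the authors deposited them. The files hold no read totals. From the spacing of the lowest values, depth came to roughly 7110000 to 8510000 fragments per library. Relative to vehicle replicate 1, vehicle replicates 2 and 3 were at 0.954 and 0.902 and the D-serine libraries at 0.836 to 0.893. By this estimate each D-serine library was shallower than each vehicle library. Differences are means of log2(FPKM + 1) with D-serine minus the same with vehicle, which understates changes of genes near 1 FPKM, and tests are limma on the 11737 genes that averaged 1 FPKM or more. Of the 42 members, 41 were tested. Derl3 was below the minimum. The adjusted p is Benjamini-Hochberg over all tested genes, with a threshold of 0.05.

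Most of the ER genes were lower in the D-serine kidneys, with the chaperone BiP (Hspa5), its helpers Hyou1, Dnajb9 and Dnajc3, and the degradation genes Herpud1 and Edem1 furthest down on the log2(FPKM + 1) scale. Of the 41 tested members, 34 had a log2 difference below 0, against 51.1% of all tested genes, and 7 above 0, against 48.9%. The members' median log2 difference was -0.22, beside -0.0078 for all tested genes. The groups did not overlap in 21 members, against 35.8% of all tested genes. In 20 of them every D-serine library lay below every vehicle library, against 19.4% of all tested genes, and in 1, Fkbp2, every D-serine library lay above, against 16.5%. No member passed limma at an adjusted p of 0.05, where 0.0767% of all tested genes did. The smallest adjusted p among the members was 0.058, for Herpud1.

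At an unadjusted p of 0.05 in limma, 16 members were lower, against 14.6% of all tested genes, and 1 was higher, against 13.1%. At an adjusted p of 0.1, 9 members were lower, against 5.84% of all tested genes, and 0 higher, against 5.37%. These 9 were Hspa5, Hyou1, Hspa13, Dnajc3, Atf6, Herpud1, Edem1, Edem3 and Ssr3. The zero count at 0.05 depended on the libraries and genes in the fit. Without D-serine replicate 3, Hspa5, Hyou1, Dnajb9 and Herpud1 were called lower and Fkbp2 higher, in a fit that called 5.19% of all genes. With small RNA genes left out, Herpud1 and Edem1 were called, both lower, beside 2.85% of all genes. Without D-serine replicate 2, 11 members in place of 7 were higher.

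**Figure D1:**
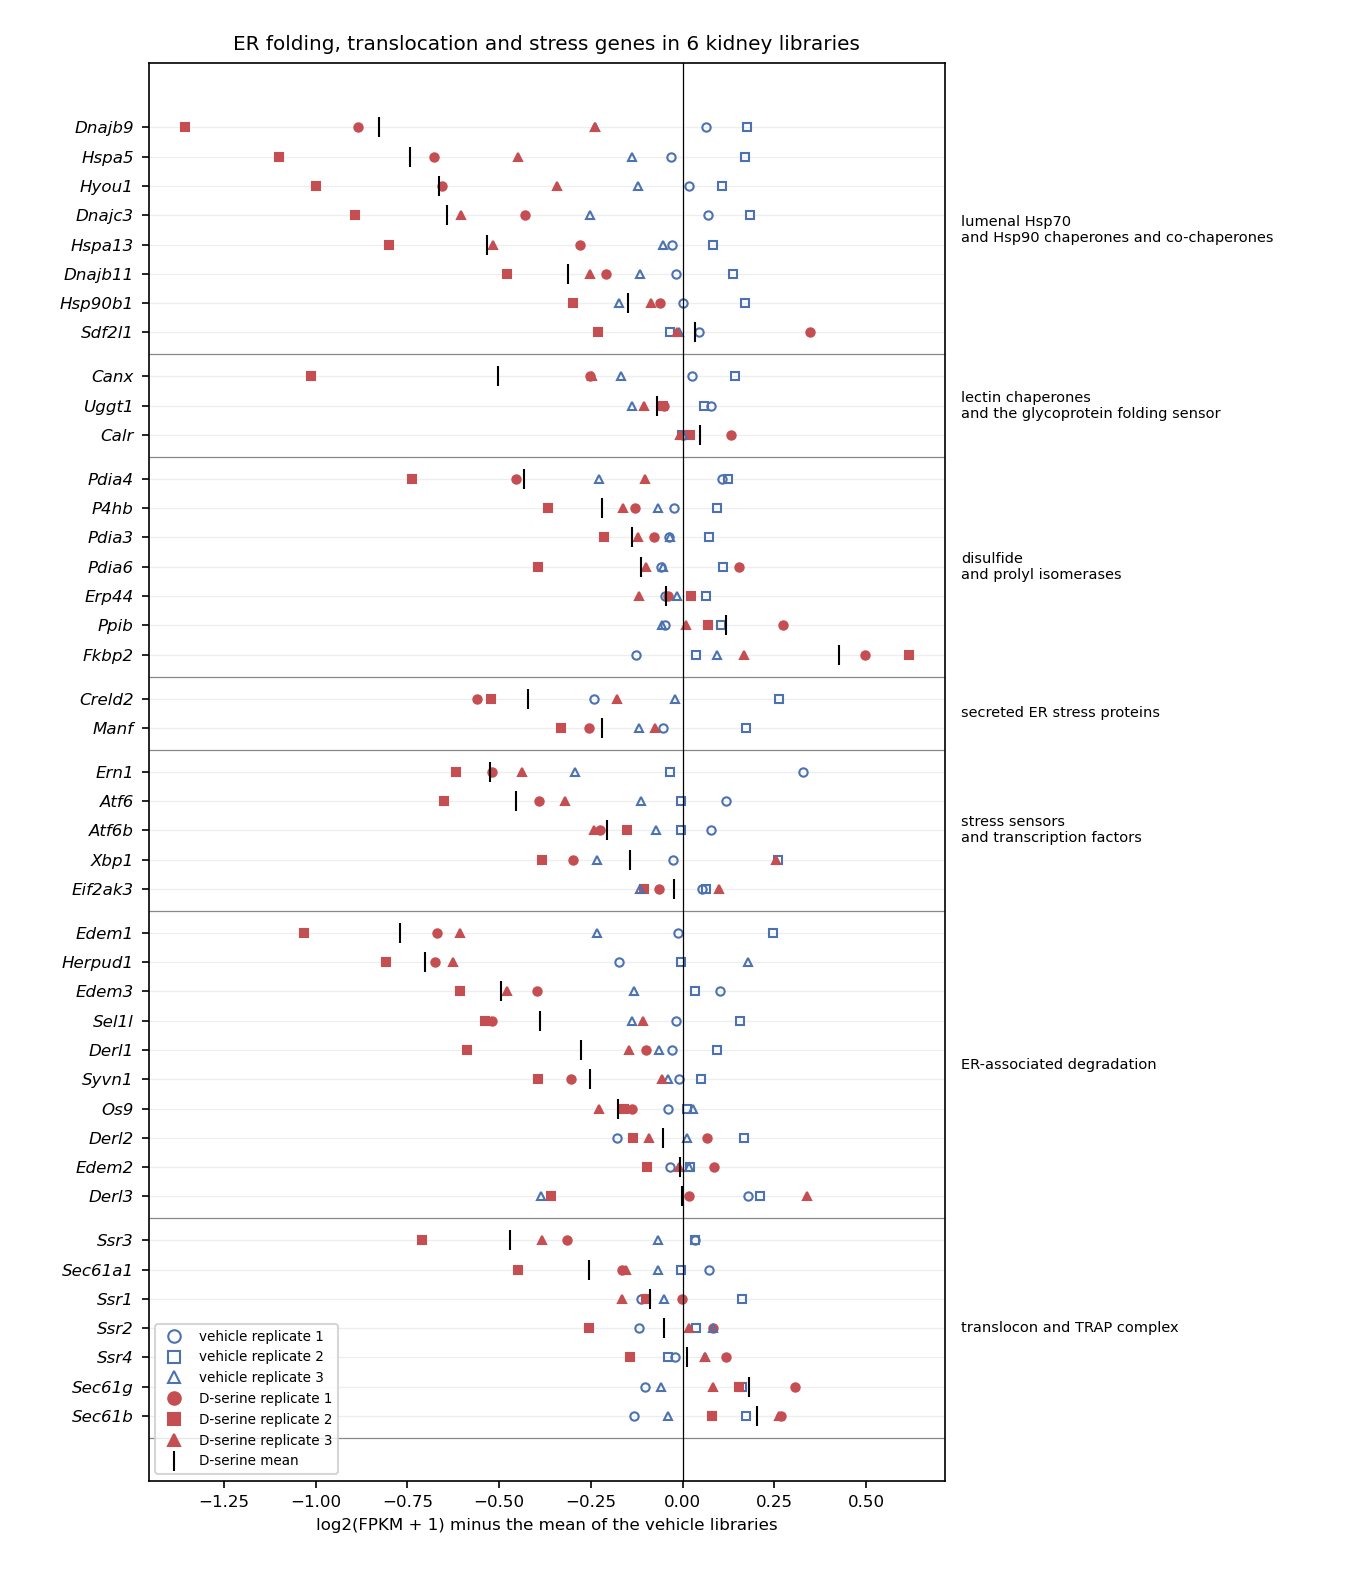
Each row is 1 of the 42 ER genes, grouped by role. The horizontal axis is log2(FPKM + 1) minus the mean of the 3 vehicle libraries, open blue symbols are vehicle libraries, filled red symbols are D-serine libraries, and the black tick is the D-serine mean. In 20 tested members all red symbols lie left of all blue ones, and Fkbp2 shows the opposite.

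The libraries did not stand equally far apart. D-serine replicate 2, the shallowest library, held the lowest value of the 6 libraries for 28 of the 42 members, and vehicle replicate 2 held the highest for 21. D-serine replicate 3 lay nearest to the vehicle group for Hspa5, Hyou1, Dnajb9, Herpud1 and Edem1. The summed FPKM of the 42 genes was 3666, 4016 and 3661 in the vehicle libraries, or 0.485%, 0.484% and 0.455% of all FPKM. It was 3616, 3156 and 3481 in the D-serine libraries, or 0.458%, 0.380% and 0.443%. The sum is led by a few abundant genes, of which Calr was not lower, and its share overlapped between the groups.

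Levels spanned a wide range, and FPKM, being per length, allows a comparison between genes. With vehicle, the lectin chaperone gene Calr stood first at 432 ± 0.295 FPKM (SD, n = 3 libraries in each group here and below), followed by P4hb at 395 ± 23.1 FPKM and Hspa5 at 279.7 ± 31.0 FPKM. Fkbp2, Herpud1, Pdia3, Hsp90b1 and Ppib came next at 234 to 201 FPKM, and neighbours in the order of these 5 differed by less than the larger SD of the pair. The small translocon genes Sec61b and Ssr4 followed at 136 and 128 FPKM, and the middle of the order held Creld2 and Sec61a1 at 45.7 and 44.7 FPKM. The stress sensors stood near the foot, at 6.75 FPKM for Atf6, 6.53 FPKM for Eif2ak3 and 1.60 FPKM for Ern1. Derl3 was last, at 0.745 FPKM.

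The Hsp70 and Hsp90 type chaperones and their co-chaperones were the lowest of the 7 role groups, with a median log2 difference of -0.59. Of 8 members 7 were lower, 6 of them without overlap, against 51.1% and 19.4% of all tested genes. Hspa5 (chr2:34771970-34777547, mm10, GENCODE M21) encodes BiP, the ER Hsp70, which binds unfolded chains and also holds the stress sensors inactive. It was at 272, 314 and 253 FPKM in the vehicle libraries, against 174, 129 and 204 FPKM in the D-serine libraries. Every D-serine library lay below the lowest vehicle library, and the D-serine mean was 60.4% of the vehicle mean (log2 difference -0.74 ± 0.17 SE, adjusted p = 0.076 in limma).

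BiP works with exchange factors and J-domain proteins, and several of these were lower too. Hyou1, a large Hsp70 relative that reloads BiP with nucleotide, was at 34.6, 36.9 and 31.4 FPKM in the vehicle libraries, against 21.4, 16.6 and 26.8 FPKM in the D-serine libraries (log2 difference -0.67 ± 0.17, limma adjusted p = 0.082). Dnajb9, a J protein that steers BiP to misfolded chains and to IRE1, was at 23.6, 25.5 and 18.9 FPKM in the vehicle libraries, against 11.7, 8.18 and 18.9 FPKM in the D-serine libraries. The lowest vehicle and the highest D-serine library of Dnajb9 were almost level, so that the separation rested on a narrow gap, although its log2 difference of -0.83 was the lowest of all members on this scale (limma adjusted p = 0.11). With a pseudocount of 0.1 FPKM Ern1 was lower, at -0.90 beside -0.88 for Dnajb9, and with a trend on transcript length and GC content taken out Herpud1 and Dnajb9 were nearly level at -0.77 and -0.76.

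Dnajc3, a J protein first known as an inhibitor of eIF2 alpha kinases, was at 41.2, 44.7 and 32.8 FPKM in the vehicle libraries, against 28.9, 20.7 and 25.5 FPKM in the D-serine libraries, and differed on the log2 scale by -0.64 ± 0.16 (limma adjusted p = 0.08). Hspa13, a small Hsp70-like ATPase of microsomes, was at 6.94, 7.59 and 6.82 FPKM in the vehicle libraries, against 5.69, 3.66 and 4.67 FPKM in the D-serine libraries. Dnajb11, another J partner of BiP, was at 77.3, 86.1 and 72.1 FPKM in the vehicle libraries, against 67.6, 55.9 and 65.6 FPKM in the D-serine libraries. For all 3 the groups stood apart, with D-serine replicate 2 lowest, and the difference of Dnajb11, -0.31 on the log2 scale, was the smallest of the 3.

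The remaining chaperones of this group did not separate. Hsp90b1, the ER form of Hsp90, was at 215, 242 and 191 FPKM in the vehicle libraries, against 206, 175 and 203 FPKM in the D-serine libraries. Its groups overlapped, and its log2 difference of -0.15 ± 0.12 was a fraction of that of Hspa5 (limma adjusted p = 0.44). Sdf2l1, a small protein that keeps the BiP cycle with J proteins running, was at 10.2 ± 0.308 and 10.7 ± 2.41 FPKM with overlapping groups.

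**Figure D2:**
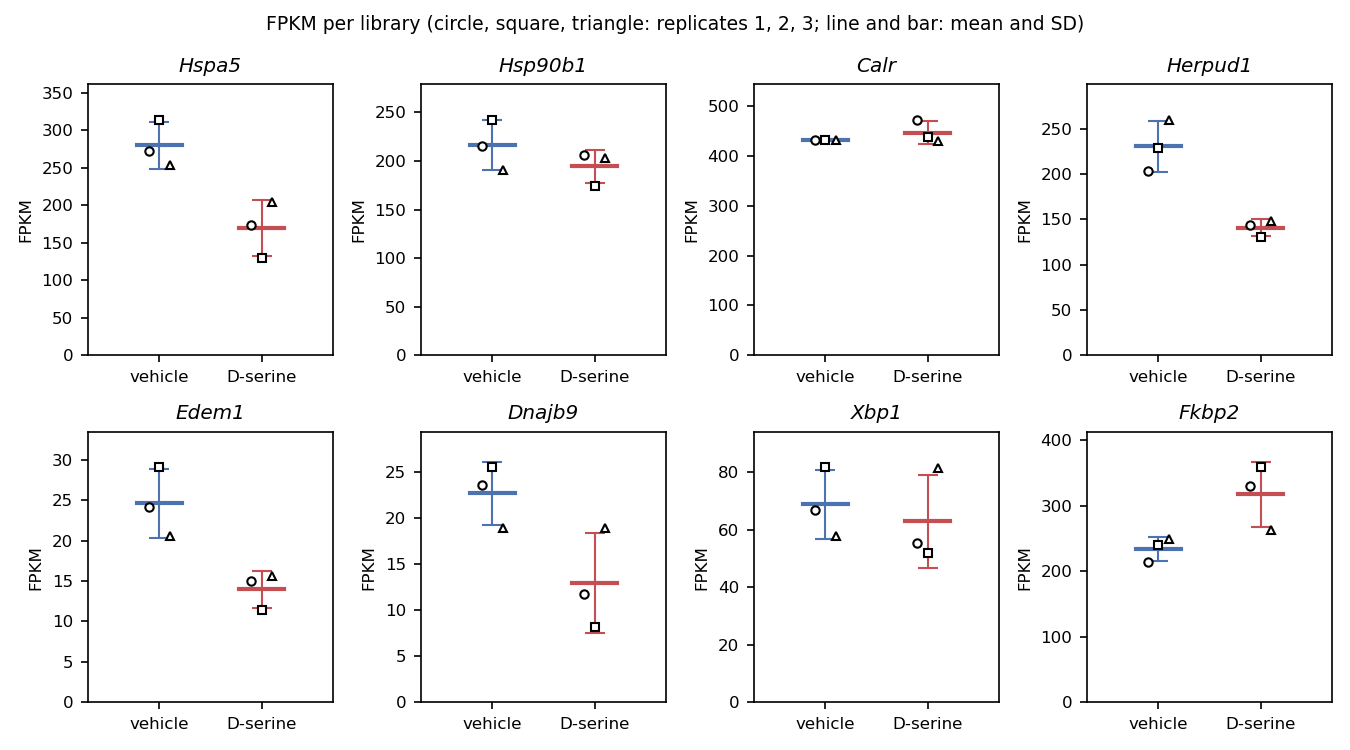
FPKM (vertical axes, each from 0) of 8 ER genes in each library; circles, squares and triangles are replicates 1, 2 and 3, the thick line is the group mean and the bar its SD. Hspa5, Herpud1, Edem1 and Dnajb9 show D-serine libraries below the vehicle libraries, Hsp90b1, Calr and Xbp1 show overlap, and Fkbp2 lies above.

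The ER-associated degradation genes had 9 of 9 tested members below 0 and 6 lower without overlap, against 51.1% and 19.4% of all tested genes. Their median was -0.28. Herpud1 (chr8:94386438-94395377), a membrane protein with a ubiquitin-like domain that gathers the retrotranslocation complex and is short-lived, was at 203, 229 and 259.8 FPKM in the vehicle libraries, against 143, 131 and 149 FPKM in the D-serine libraries. Its D-serine libraries were tightly placed, at 61.1% of the vehicle mean, and it had the smallest adjusted p of all members (log2 difference -0.70 ± 0.12, limma adjusted p = 0.058, from 0.039 to 0.21 over the alternatives run). The log2 difference stayed between -0.79 and -0.61 when each library was left out in turn.

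The EDEM proteins trim mannose from misfolded glycoproteins and so mark them for removal. Edem1 (chr6:108828641-108859356) was at 24.1, 29.1 and 20.6 FPKM in the vehicle libraries, against 14.9, 11.4 and 15.7 FPKM in the D-serine libraries, and differed on the log2 scale by -0.77 ± 0.16 (limma adjusted p = 0.068, from 0.049 to 0.22 over the alternatives run). Edem3 was at 11.1, 10.6 and 9.32 FPKM in the vehicle libraries, against 7.60, 6.43 and 7.13 FPKM in the D-serine libraries, and differed on the log2 scale by -0.49 ± 0.11 (limma adjusted p = 0.071). In both genes all D-serine libraries lay below all vehicle libraries. Edem2, the family member that makes the first cut, was at 22.2 ± 0.492 and 22.1 ± 1.45 FPKM and differed by less than the spread between replicates.

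The ubiquitin ligase of this pathway is Syvn1 (HRD1), held by its adaptor Sel1l. Syvn1 was at 21.7, 22.6 and 21.2 FPKM in the vehicle libraries, against 17.5, 16.4 and 20.9 FPKM in the D-serine libraries, with the third D-serine library just under the vehicle range. Sel1l was at 20.3 ± 2.19 and 15.3 ± 2.87 FPKM, and its groups overlapped through D-serine replicate 3. The lectin gene Os9, whose product hands glycoproteins to this ligase, was at 59.2, 61.3 and 62.1 FPKM in the vehicle libraries, against 55.2, 54.4 and 51.8 FPKM in the D-serine libraries: the groups stood apart by a small step (-0.18 on the log2 scale).

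Derlins are rhomboid-like proteins that form part of the exit path. Derl1 was at 51.2, 55.8 and 49.9 FPKM in the vehicle libraries, against 48.6, 34.4 and 47.1 FPKM in the D-serine libraries, and its difference rested mostly on D-serine replicate 2, since the log2 difference moved from -0.28 to -0.12 without it. Derl2 was at 19.3 ± 2.43 and 18.5 ± 1.46 FPKM, within the spread. Derl3, which is abundant in secretory cells such as plasma cells, read 0.939, 0.984 and 0.312 FPKM in the vehicle libraries, against 0.736, 0.337 and 1.17 FPKM in the D-serine libraries, so the groups overlapped.

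Among the sensors and transcription factors, 5 of 5 had a log2 difference below 0, against 51.1% of all tested genes, with a median of -0.21. In 3 every D-serine library lay below every vehicle library, against 19.4% of all tested genes. Atf6, the sensor that becomes a transcription factor of chaperone genes, was at 7.40, 6.71 and 6.15 FPKM in the vehicle libraries, against 4.90, 3.93 and 5.19 FPKM in the D-serine libraries (log2 difference -0.45 ± 0.12, limma adjusted p = 0.091). Its relative Atf6b was at 18.1, 17.0 and 16.2 FPKM in the vehicle libraries, against 14.5, 15.3 and 14.3 FPKM in the D-serine libraries, a step of -0.21 without overlap, which was -0.37, level with Atf6, once the length and GC trend described further on was taken out. Ern1, which encodes IRE1 alpha, was at 2.22, 1.50 and 1.09 FPKM in the vehicle libraries, against 0.787, 0.672 and 0.892 FPKM in the D-serine libraries. All D-serine libraries of Ern1 were below all vehicle libraries, and the D-serine mean was 48.9% of the vehicle mean. Its log2 difference was -0.52 ± 0.19 with the pseudocount of 1 FPKM and -0.90 with one of 0.1 FPKM. At about 1 FPKM counting error is large, and the vehicle libraries spread more widely than the gap (limma adjusted p = 0.14).

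The other two members of the group overlapped. Eif2ak3, which encodes PERK, was at 6.79, 6.86 and 5.94 FPKM in the vehicle libraries, against 6.19, 5.99 and 7.05 FPKM in the D-serine libraries, and its log2 difference of -0.023 ± 0.11 was within the spread. Xbp1 was at 66.9, 81.8 and 57.9 FPKM in the vehicle libraries, against 55.3, 52.0 and 81.5 FPKM in the D-serine libraries: D-serine replicates 1 and 2 lay below the vehicle range while replicate 3 matched the highest vehicle library. Gene-level FPKM does not separate the spliced, active Xbp1 messenger from the unspliced form, so IRE1 activity was not measured here. Creld2 and Manf, which encode small ER proteins secreted under stress, were at 45.7 ± 8.27 and 33.8 ± 5.26 FPKM and at 40.2 ± 4.45 and 34.3 ± 3.24 FPKM, and their groups overlapped.

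The lectin chaperones split. Calr and Canx encode calreticulin and calnexin, the soluble and the membrane-bound chaperone of glycoproteins that carry a single glucose. Calr was at 432, 431 and 432 FPKM in the vehicle libraries, against 472, 438 and 429 FPKM in the D-serine libraries, with overlapping groups and a log2 difference of 0.048 ± 0.085 (limma adjusted p = 0.73). Canx was at 126, 137 and 110.4 FPKM in the vehicle libraries, against 104, 60.9 and 104 FPKM in the D-serine libraries. Its groups did not overlap, but D-serine replicate 2 stood far below the rest, and without it the log2 difference was -0.25 in place of -0.50. Uggt1, the folding sensor that puts the glucose back on unfinished glycoproteins, was at 7.17 ± 0.661 and 6.77 ± 0.162 FPKM.

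The isomerases had a median log2 difference of -0.11 over 7 members. P4hb, the founding protein disulfide isomerase and a subunit of collagen prolyl hydroxylase, was at 388, 421 and 376 FPKM in the vehicle libraries, against 361, 306 and 353 FPKM in the D-serine libraries, below the vehicle range in each library by a small margin (-0.22 on the log2 scale). Pdia3, the disulfide isomerase that partners the lectin chaperones, was at 218, 235 and 218 FPKM in the vehicle libraries, against 212, 193 and 206 FPKM in the D-serine libraries. It too lay below the vehicle range in each library, by -0.14 ± 0.088 (limma adjusted p = 0.33). Pdia4 (54.9 ± 7.37 and 40.9 ± 9.31 FPKM) had a larger difference of -0.43 with overlapping groups, and Pdia6 (109 ± 7.44 and 102 ± 19.3 FPKM) and the thiol-retention protein gene Erp44 (37.6 ± 1.55 and 36.4 ± 1.83 FPKM) overlapped as well.

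The prolyl isomerases stood on the other side of 0. Fkbp2, an FK506-binding isomerase of the lumen, was at 214, 239.5 and 249 FPKM in the vehicle libraries, against 329.8, 359 and 262 FPKM in the D-serine libraries, the 1 member with every D-serine library above the vehicle libraries. Its log2 difference was 0.43 ± 0.14 (limma adjusted p = 0.11), and it was 0.17 with overlapping groups after the length and GC trend, described further on, was taken out. Ppib, cyclophilin B, which helps collagen and other chains to fold, was at 194, 216 and 194 FPKM in the vehicle libraries, against 243, 211 and 202 FPKM in the D-serine libraries, with overlapping groups.

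The translocon and the translocon-associated protein (TRAP) complex, which sits beside the channel and aids the entry of some chains, had a median log2 difference of -0.052. Sec61a1, the subunit that forms the pore, was at 47.0, 44.6 and 42.7 FPKM in the vehicle libraries, against 39.8, 32.5 and 40.1 FPKM in the D-serine libraries (log2 difference -0.26 ± 0.11). Ssr3, the gamma subunit of TRAP, was at 94.0, 94.0 and 87.7 FPKM in the vehicle libraries, against 73.7, 55.8 and 70.2 FPKM in the D-serine libraries (log2 difference -0.47 ± 0.12, limma adjusted p = 0.084). In both, each D-serine library lay below each vehicle library. Their partners did not follow: Sec61b and Sec61g, the small subunits of the same channel, had log2 differences of 0.20 and 0.18, and Ssr1, Ssr2 and Ssr4 of -0.09, -0.052 and 0.012, all with overlapping groups.

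**Figure D3:**
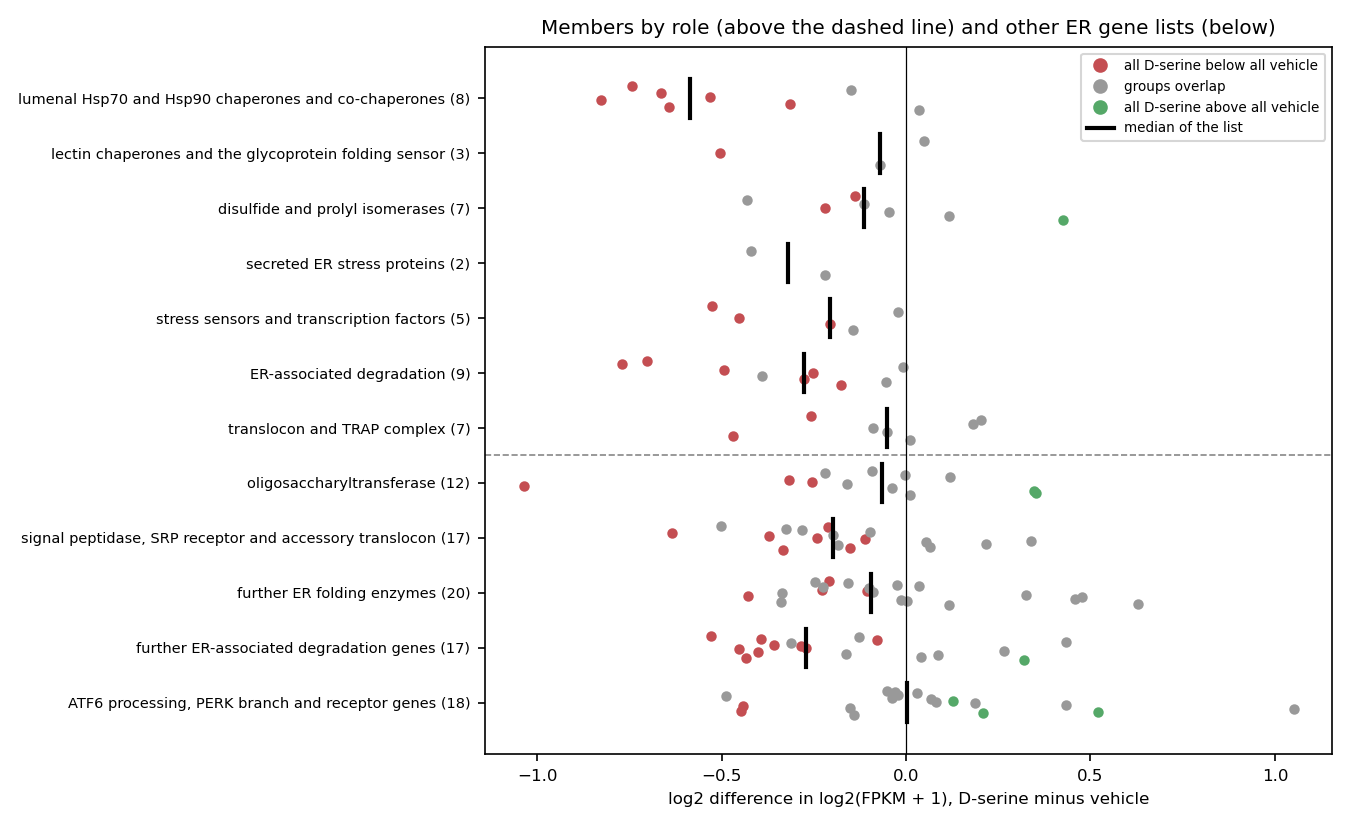
The horizontal axis is the log2 difference, D-serine minus vehicle; each point is 1 tested gene, red where all D-serine libraries lay below all vehicle libraries, green for the reverse and grey where groups overlapped, and the black bar is the list's median. Numbers in brackets are tested genes; the chaperone group has the lowest median, -0.59.

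Many ER stress genes carry the ER stress response element (ERSE), in which CCAAT, bound by the factor NF-Y, and CCACG, read by ATF6, are spaced by 9 bases. A shorter form, ERSE-II, has ATTGG and CCACG spaced by 1 base. Both were searched on both strands of the RefSeq promoter windows (GRCm38.p6, 250 bases before to 50 after the start, where the RefSeq start need not be the GENCODE gene end given above). A window was on hand for 35 of the 42 members. An exact ERSE was found in 9 of these 35, against 0.137% of all 27025 genes with a window, and an exact ERSE-II in 2, against 0.0444%. The members were picked by name and include known genes of this response, so these shares are a description and not a test. No match of either motif overlapped a match of the other. The matches are printed in motif orientation, with the fixed letters in capitals, to show how the sites of the lower and the level genes compare.
Hspa5 ERSE: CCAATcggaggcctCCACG
Dnajc3 ERSE: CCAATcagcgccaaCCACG
Canx ERSE: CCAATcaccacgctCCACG
Syvn1 ERSE: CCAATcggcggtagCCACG
Creld2 ERSE: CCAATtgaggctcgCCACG
Pdia6 ERSE: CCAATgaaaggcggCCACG
Hsp90b1 ERSE, far: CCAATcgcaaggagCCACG
Hsp90b1 ERSE, near: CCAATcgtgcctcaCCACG
Calr ERSE: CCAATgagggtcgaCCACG
Derl3 ERSE: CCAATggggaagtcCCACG
Herpud1 ERSE-II: ATTGGgCCACG
Dnajb11 ERSE-II: ATTGGcCCACG

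The 250 bases before the start of 4 of these genes are shown because 2 of them, Hspa5 and Herpud1, had some of the lowest log2 differences and the groups of the other two overlapped. The fixed letters of each match are in capitals, on whichever strand it lies. In Hspa5 the ERSE ran from 65 to 47 bases before the start, in Hsp90b1 1 copy ran from 212 to 194 and another, on the opposite strand, from 107 to 89, in Calr the copy on the opposite strand ran from 162 to 144, and in Herpud1 the ERSE-II ran from 52 to 42.
Hspa5 (chr2:34771840-34772089, plus strand): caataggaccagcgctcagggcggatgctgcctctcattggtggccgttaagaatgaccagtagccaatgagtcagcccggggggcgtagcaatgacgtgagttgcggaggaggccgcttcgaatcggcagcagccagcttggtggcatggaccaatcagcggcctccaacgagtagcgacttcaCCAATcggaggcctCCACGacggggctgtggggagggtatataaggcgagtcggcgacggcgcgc
Herpud1 (chr8:94386179-94386428, plus strand): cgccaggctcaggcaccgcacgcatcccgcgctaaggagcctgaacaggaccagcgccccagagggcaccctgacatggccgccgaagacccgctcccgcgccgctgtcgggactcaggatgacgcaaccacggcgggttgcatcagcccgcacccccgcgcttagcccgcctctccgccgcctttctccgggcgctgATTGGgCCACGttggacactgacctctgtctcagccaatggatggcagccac
Hsp90b1 (chr10:86705445-86705694, minus strand): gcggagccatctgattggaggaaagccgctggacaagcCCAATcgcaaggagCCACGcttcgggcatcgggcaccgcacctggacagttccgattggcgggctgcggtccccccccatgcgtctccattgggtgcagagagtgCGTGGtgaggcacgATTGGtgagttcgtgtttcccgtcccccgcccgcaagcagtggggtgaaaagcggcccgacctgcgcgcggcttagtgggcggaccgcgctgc
Calr (chr8:84846932-84847181, minus strand): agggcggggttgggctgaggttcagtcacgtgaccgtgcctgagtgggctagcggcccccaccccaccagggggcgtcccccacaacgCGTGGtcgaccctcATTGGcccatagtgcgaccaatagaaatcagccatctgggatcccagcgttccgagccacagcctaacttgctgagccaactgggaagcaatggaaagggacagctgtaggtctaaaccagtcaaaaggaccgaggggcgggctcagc

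Among the 10 tested members with either motif, 9 were lower, 6 of them without overlap, and the median log2 difference was -0.37, with a range from -0.74 for Hspa5 to 0.048 for Calr. Among the 24 members with a window and no exact match, 18 were lower, 9 without overlap, with a median of -0.11. The 7 members without a window could not be searched. All 7 were lower, 5 of them without overlap, with a median of -0.28. Of all tested genes, 51.1% were lower and 19.4% were lower without overlap. Members with a match were spread over the range: Hsp90b1, with 2 copies, and Calr were close to level, while Dnajb9 and Edem1, with no exact match in the window, were among the lowest. The absence of these letters says nothing of other sites. The split by motif was made after the values were known and is a description.

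Other ER genes outside the 42, from lists of the same compartment, were 84 tested genes. Of these 55 were lower and 29 higher, with a median of -0.10, and 25 were lower and 6 higher without overlap (19.4% and 16.5% of all tested genes). None was called by limma, while 18 were lower and 5 higher at an unadjusted p of 0.05 (14.6% and 13.1% of all tested genes). The further degradation genes had 12 of 17 lower, 9 without overlap, and a median of -0.27. There Vcp, the ATPase that pulls proteins out of the membrane, was lowest at 191 ± 17.3 and 133 ± 23.5 FPKM and the ubiquitin-conjugating enzyme gene Ube2j2 highest at 2.94 ± 0.690 and 4.51 ± 2.10 FPKM. 

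The list of signal peptidase, signal recognition and accessory translocon genes had 13 of 17 lower and a median of -0.20. Its ends were Srpr, the receptor that docks ribosomes at the ER (55.1 ± 6.14 and 35.3 ± 5.76 FPKM), and Sec61a2 (6.66 ± 1.06 and 8.82 ± 2.53 FPKM). The oligosaccharyltransferase list, the enzyme that attaches N-glycans, had a median of -0.065, from Tusc3 (24.8 ± 5.69 and 12.2 ± 5.08 FPKM) to Tmem258 (168 ± 16.0 and 214 ± 7.22 FPKM). Further folding enzymes had a median of -0.095, from Fkbp9 (35.2 ± 2.37 and 26.3 ± 5.75 FPKM) to the peroxiredoxin gene Prdx4 (23.7 ± 4.10 and 37.7 ± 9.71 FPKM).

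The list of ATF6 processing, PERK branch and KDEL receptor genes was evenly divided, 9 lower and 9 higher, with a median of 0.0040. This list also holds genes outside these groups, among them Bax, Traf2 and Tmbim6. Creb3l2, a transcription factor cut like ATF6, was lowest at 6.40 ± 1.79 and 4.28 ± 1.25 FPKM, and the stress gene Nupr1 highest at 7.77 ± 5.96 and 14.6 ± 3.40 FPKM with overlapping groups. Atf4, whose translation PERK signalling raises, was at 71.8 ± 5.90 and 75.9 ± 4.04 FPKM, and its target Ddit3 (CHOP), a promoter of cell death, at 21.9 ± 2.01 and 25.3 ± 5.01 FPKM. Both had overlapping groups (limma adjusted p = 0.62 and 0.44), as had Ppp1r15a, whose product brings a phosphatase to eIF2 alpha, at 8.09 ± 1.86 and 11.3 ± 2.92 FPKM (limma adjusted p = 0.21). Trib3 and Chac1, targets of ATF4 and CHOP, were under the minimum and not tested. Trib3 was at 0.172, 0.120 and 0.127 FPKM in the vehicle libraries, against 0.515, 0.412 and 0.456 FPKM in the D-serine libraries. Chac1 was at 0.311 FPKM, listed at 0 and at 0.172 FPKM in the vehicle libraries, against 0.435, 0.558 and 0.352 FPKM in the D-serine libraries. In both every D-serine library lay above every vehicle library, at levels of less than 1 FPKM. Of the tested genes of this list, 3 were higher and 2 lower without overlap, against 16.5% and 19.4% of all tested genes. The 3 higher ones were Bax, Traf2 and Kdelr2 (limma adjusted p = 0.105, 0.24 and 0.35). Bax was at 49.6 ± 6.32 and 72.1 ± 14.2 FPKM, and Traf2 at 6.70 ± 0.149 and 7.92 ± 0.928 FPKM. Kdelr2 was at 45.6 ± 0.598 and 49.9 ± 2.34 FPKM. The 2 lower ones were Ppp1r15b, at 20.7 ± 0.449 and 15.1 ± 2.18 FPKM, and Tmbim6, at 1259 ± 53.7 and 931 ± 143 FPKM (limma adjusted p = 0.084 and 0.097). For genes under the minimum no share over all genes was computed. Atf4, Ddit3, Ppp1r15a, Ppp1r15b, Tmbim6, Bax, Traf2, Kdelr2, Trib3 and Chac1 are named after their values were seen.

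Longer messengers and those of lower GC content tended to be lower with D-serine across the data, and the ER genes are of uneven length. Across the 41 tested members, Spearman's rho between the longest annotated transcript and the log2 difference was -0.42, and it was -0.28 across 11309 tested genes with annotation. For GC content in place of length, rho was 0.37 across the members and 0.28 across the annotated genes. These are correlations across genes of the same 6 libraries, given as descriptions. Members over 3000 bases had a median of -0.39 (18 of 19 lower), beside -0.073 for all genes of that length. Members of 1500 to 3000 bases had a median of -0.16 (14 of 18 lower), beside 0.036, and the 4 shorter members one of -0.0088, beside 0.19.

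Taking a smooth trend on length and GC content out of each library left the members' median at -0.25, with 32 lower and 9 higher. After this step 21 members were lower without overlap, against 18.1% of all tested genes. Herpud1 was at -0.77, Dnajb9 at -0.76, Hspa5 at -0.65 and Edem1 at -0.64 on the log2 scale after this step. Creld2, a short gene, moved from -0.42 to -0.58, and Sec61b turned from 0.20 to -0.09. Atf6b moved from -0.21 to -0.37 (limma adjusted p = 0.092 after this step), the value that Atf6 had there. Os9 moved from -0.18 to -0.27, Pdia3 from -0.14 to -0.086 and Hsp90b1 from -0.15 to -0.055. Herpud1, Dnajb9, Hspa5 and Edem1 kept most of their difference, while Sec61b changed sign and Fkbp2 no longer stood apart. Hspa13 moved from -0.53 to -0.40 and Edem3 from -0.49 to -0.35. Of the members at a limma adjusted p under 0.1 before this step, Herpud1, Edem1 and Hspa5 stayed under it, at 0.059, 0.089 and 0.092. Hyou1, Edem3, Dnajc3, Ssr3, Atf6 and Hspa13 rose above it, to 0.103, 0.108, 0.115, 0.115, 0.137 and 0.142.

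**Figure D4:**
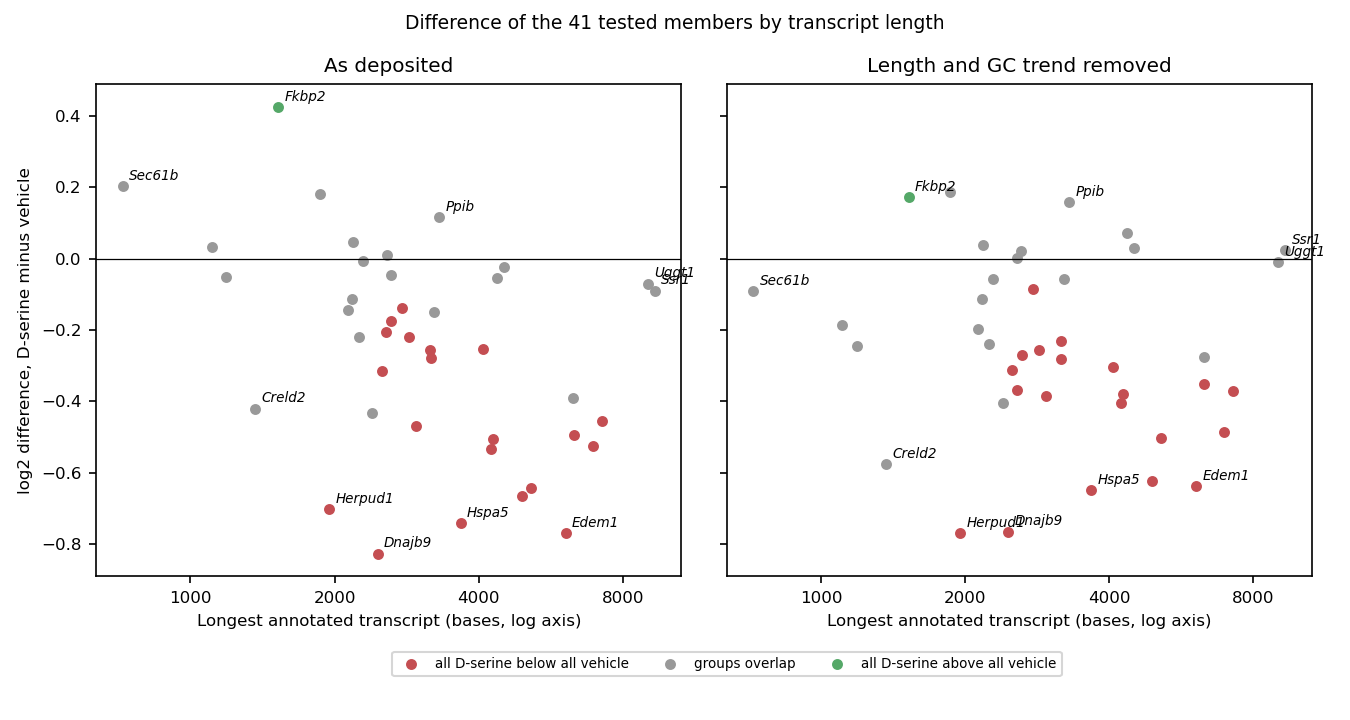
Log2 difference, D-serine minus vehicle (vertical axis), of the 41 tested members against the length of their longest annotated transcript (log axis), as deposited on the left and after removal of the length and GC trend on the right; colours give the overlap of groups in the deposited values. Long members tend to lie lower on the left, and Hspa5, Herpud1, Edem1 and Dnajb9 stay low on the right.

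Markers of kidney cell types differed between the same libraries. Summed FPKM of the 6 proximal tubule markers of segment S3 ranged from 3571 to 3910 with vehicle and from 1652 to 2471 with D-serine, and 6 of 6 were lower without overlap. The 8 markers of S1 and S2 summed to 3652 to 4211 and to 3099.9 to 3756, with 2 of 8 lower without overlap. Slc34a1, with means of 2395 and 2147 FPKM, led this sum. Vehicle replicates 1, 2 and 3 read 55.9, 11.1 and 56.6 FPKM for Slc5a2 and 40.2, 8.99 and 38.8 FPKM for Slc5a12. Slc34a1, Slc13a3 and Gatm were also lowest in replicate 2 of the vehicle group, Lrp2 and Cubn were between the others, and Slc22a6 was highest. The 6 markers of principal cells summed to 251 to 336 and to 363 to 502, and the 6 of intercalated cells to 181 to 204 and to 220.5 to 307. Of the principal cell markers 5 were higher, 4 of them without overlap, and 1 was lower. All 6 intercalated cell markers were higher, 4 of them without overlap, against 16.5% of all tested genes. The 5 markers of the thick ascending limb summed to 1332 to 1567 and to 790.1 to 1389 with overlap, D-serine replicate 3 lowest. Of these 5, 3 were lower, 1 of them without overlap, and 2 were higher with overlapping groups. Of all tested genes, 19.4% were lower without overlap. The 6 cell division markers summed to 11.4 to 15.2 and to 57.3 to 201. D-serine replicate 3 lay nearest to vehicle in the S3 sum, as it did for Hspa5, while replicate 1 was lowest for the S3 sum and replicate 2 for Hspa5.

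The 8 markers of plasma and B cells, which are rich in ER, summed to 1.64 to 2.59 FPKM with vehicle and 2.41 to 3.61 FPKM with D-serine, with Ms4a1 listed at 0 in all 6 libraries. Macrophage, endothelial, fibroblast and podocyte markers summed to at most 49.1 FPKM in any library. The part of cell makeup in the ER gene values was not tested. In RNA from whole tissue, fewer cells of a type and less RNA per cell cannot be told apart.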

How the data were processed

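The deposited tables, 1 per library, hold FPKM for the same 24346 gene symbols. The submitters' processing notes name TopHat2 2.0.13, Bowtie2 2.2.3, SAMtools 0.1.19 and Cufflinks 2.2.1, with build mm10; the headers name no unit, and FPKM was inferred from Cufflinks and the values. Annotation and strand setting: not given in the sources used here. Libraries were stranded mRNA, per the labels' protocols.

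Groups were compared with limma 3.58.1 (R 4.3.3, eBayes with trend) on log2(FPKM + 1), two-sided, for 11737 genes. An exact permutation test of 3 against 3 cannot go below 0.1 and was not used. Depth totals rest on 92 genes with 1 transcript and are rough. Length and GC content are of the longest GENCODE M21 transcript, which need not be the expressed form, and 96.4% of tested genes had one. The trend was a loess with span 0.5. Alternatives were other pseudocounts, minimums, scalings and weights, a replicate block, and leaving out small RNA genes or each library. Scripts were tested on simulated data.

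The members, gene lists and tests were chosen with earlier results of these data known. Any member could be named; values in every library are given for the sensors, for Hspa5, Hsp90b1, Calr, Ppib and Derl3, and for members whose groups did not overlap. Of each other ER list the lowest and highest genes are named.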

Additional observations from a re-analysis of the deposited data

How the results depend on the processing

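The members' median log2 difference stayed below 0 under each alternative run, from -0.25 to -0.18 over the 10 that kept all libraries and from -0.29 to -0.16 when each library was left out. Members with a difference above 0 were 7 to 9 with all libraries and 5 to 11 with 1 left out, and members without overlap 19 to 21 and 21 to 27. Groups overlap less easily with 1 library left out, so the last 2 ranges cannot be compared. The share over all tested genes was not computed for those fits. The count of all genes called, 9 in the main analysis, was 171 with a pseudocount of 0.1 FPKM, 132 with a minimum of 5 FPKM, 269 with array weights and 332 without small RNA genes, and 2 to 608 with 1 library left out. Members called were 1 with the pseudocount of 0.1 FPKM, 1 with the minimum of 5 FPKM, 1 with array weights (Herpud1 in these 3) and 2 without small RNA genes, and 0 to 5 with 1 library left out. With the replicate number as a block, 2 genes and 0 members were called. The labels do not say that the numbers pair the libraries, and the deviations of same-numbered libraries correlated at -0.070, 0.0031 and 0.067, so no pairing was assumed; not every library correlated best with its own number.

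Members near 0 changed sign. Erp44 was at 0.0061 and Edem2 at 0.031 with quantile normalization, and Edem2 at 0.024 and Ssr2 at 0.013 with array weights. With the length and GC trend removed, Sdf2l1 was at -0.19, Erp44 at 0.023, Eif2ak3 at 0.029, Derl2 at 0.072, Sec61b at -0.090 and Ssr1 at 0.024. With 1 library left out, the ranges that crossed 0 were -0.14 to 0.030 for Derl2, -0.053 to 0.038 for Edem2, -0.084 to 0.018 for Eif2ak3, -0.25 to 0.028 for Pdia6, -0.12 to 0.17 for Sdf2l1, -0.12 to 0.051 for Ssr2 and -0.042 to 0.089 for Ssr4. The causes were not tested. Depth limits the low genes most, among them Derl3 and Ern1, which was under the minimum without vehicle replicate 1.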
